A study of Homo sapiens with 7 samples.

Results

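Imprinted genes, which are transcribed mainly or only from the copy inherited from 1 parent, were followed in K562 cells, a human chronic myelogenous leukemia line. The set was a list of 35 gene names, and each name was looked up in the deposited count table of 57773 rows. All 35 names were found, in 36 rows because SNURF has 2 identifiers. Of these, 17 genes had enough counts to be tested, among 18160 tested genes in all. A further 11 had 2 to 58 counts summed over all libraries, and 7 names had no count in any library.

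Poly-A RNA was sequenced in 7 libraries. In every group LSD1, a histone demethylase encoded by KDM1A, was tagged with GFP. Parental cells, with 3 libraries, had only the tagged wild-type enzyme (wtLSD1-GFP). Edited lines 1 and 2, with 2 libraries each, had 2 alleles of Y391K-LSD1-GFP and 1 allele of wtLSD1-GFP, and Y391K is, per the study's design, a gain-of-function change that lets the enzyme act where lysine 14 of histone H3 is acetylated. The labels do not say how either edited line was derived or whether the libraries within a group were separate cultures, so p-values measure the spread between these libraries, which may be technical. Both lines were compared with the same parental libraries. The comparison of line 2 with line 1 is the test of a difference between them.

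Imprinting is set in the germ line, where differentially methylated regions are marked on the egg or the sperm copy, and it is kept after fertilisation while most other methylation is erased. The zinc finger protein ZFP57 with TRIM28, and the maintenance methyltransferase DNMT1, protect the marked copy, and the insulator protein CTCF reads some of these regions. Many imprinted genes regulate fetal and placental growth, and several are silent in adult blood cells. LSD1 removes methyl groups from lysine 4 of histone H3, and its paralog KDM1B acts on the same residue when maternal imprints are set in mouse oocytes.

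Total counts ranged from 35841302 to 72577827 per library, so that 3 counts, used as the detection floor, stood for 0.0412 to 0.0814 CPM (counts scaled to library size). Floors and intervals cover counting error only. KDM1A RNA stood at 237 to 348 CPM in parental and 245 to 320 CPM in edited libraries, and counts per gene cannot tell the edited allele from the wild-type one. All 11 K562 markers examined were at 1 CPM or more in all libraries. The B cell markers, and the monocyte and granulocyte markers, each summed to at most 1.38 CPM per library. CDH5, the only endothelial marker examined, reached at most 0.0359 CPM. The T cell markers, mainly CD3D, summed to 2.21 to 7.43 CPM, the fibroblast markers to 0.888 to 3.22 CPM and the epithelial markers, mainly EPCAM, to 69.1 to 125 CPM, and their part in the results was not tested. Parental 3 stood somewhat apart from the other parental libraries, with correlations of log2 CPM across genes of 0.967 and 0.965 with them, against 0.988 between parental 1 and 2. In bulk RNA, fewer cells expressing a gene and less RNA per cell cannot be told apart.

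The promoters of 3 of the genes that differed are shown first, so that windows with and without a ZFP57 hexamer can be compared. They are RefSeq sequences of GRCh38.p14, from 250 bases before to 50 bases after an annotated start, written 5′ to 3′ on the strand of the gene. Capitals mark TGCCGC, the hexamer bound by ZFP57 when it is methylated, or its reverse complement GCGGCA. H19 lies at chr11:2001217-2001516 on the minus strand, DIRAS3 at chr1:68050578-68050877 on the minus strand, and the shown windows of PLAGL1 at chr6:144064550-144064849 and chr6:144008210-144008509, both on the minus strand. PLAGL1 has 5 windows in the table, and the 2 with the most CpG dinucleotides are shown.
H19: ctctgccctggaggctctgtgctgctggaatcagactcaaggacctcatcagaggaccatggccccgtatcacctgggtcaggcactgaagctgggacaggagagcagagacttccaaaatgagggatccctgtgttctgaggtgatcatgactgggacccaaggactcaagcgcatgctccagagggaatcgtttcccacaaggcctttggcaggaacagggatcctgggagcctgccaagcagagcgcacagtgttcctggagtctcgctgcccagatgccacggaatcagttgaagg
DIRAS3: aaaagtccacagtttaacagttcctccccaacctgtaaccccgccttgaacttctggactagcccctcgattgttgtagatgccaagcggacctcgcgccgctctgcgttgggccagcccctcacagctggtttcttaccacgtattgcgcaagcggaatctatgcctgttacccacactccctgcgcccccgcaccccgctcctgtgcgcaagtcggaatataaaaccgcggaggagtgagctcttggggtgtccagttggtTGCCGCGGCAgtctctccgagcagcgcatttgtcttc
PLAGL1 first window: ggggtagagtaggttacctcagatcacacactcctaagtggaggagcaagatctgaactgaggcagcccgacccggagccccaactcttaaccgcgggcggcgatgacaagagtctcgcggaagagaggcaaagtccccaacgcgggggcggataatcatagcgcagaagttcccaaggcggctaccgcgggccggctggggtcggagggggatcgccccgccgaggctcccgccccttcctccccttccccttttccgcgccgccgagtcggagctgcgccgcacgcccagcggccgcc
PLAGL1 second window: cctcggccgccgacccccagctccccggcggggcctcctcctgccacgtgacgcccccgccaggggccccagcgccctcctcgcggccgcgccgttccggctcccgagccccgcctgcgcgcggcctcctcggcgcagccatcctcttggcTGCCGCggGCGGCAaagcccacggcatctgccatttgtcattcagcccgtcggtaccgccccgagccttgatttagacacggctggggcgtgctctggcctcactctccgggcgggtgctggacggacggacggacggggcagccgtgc

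The DIRAS3 promoter held 2 overlapping hexamers and 21 CpG dinucleotides, and the H19 promoter held no hexamer and 6 CpG dinucleotides. The first PLAGL1 window held no hexamer and 31 CpG dinucleotides, and the second held 2 hexamers and 39 CpG dinucleotides. The 3 PLAGL1 windows not shown held no hexamer and 2 to 3 CpG dinucleotides. Of 51 promoters found for 22 of the imprinted genes, 23 held the hexamer on either strand, 45.1%, against 16.7% of all 35116 promoters of this length. Some windows overlap, and 1 is listed for both SNRPN and SNURF. With overlapping windows of a strand merged, 17 of 43 windows of imprinted genes held it, 39.5%, against 16.9% of 32679 over the whole table. Their median number of CpG dinucleotides was 18, against 14 over all promoters, so the imprinted promoters also held more of the dinucleotide that the hexamer contains. A match of letters is a description of these windows and not evidence of binding, and DLK1 and ASCL2 had no entry. Sequence outside the windows was not searched, so a window without the hexamer does not show that the locus, that of H19 included, lacks it.

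A gene passed when its p, from the quasi-likelihood F test of edgeR and adjusted by Benjamini-Hochberg over all tested genes, was under 0.05. In all edited cells against parental cells, 1 of the 17 tested imprinted genes passed and was lower, where 0.182% of all tested genes passed, 0.0165% higher and 0.165% lower. In line 1 against parental cells 3 passed, all lower, against 1.75% of all genes, 0.419% higher and 1.33% lower. In line 2 against parental cells 1 was higher and 2 were lower, against 5.82% of all genes, 1.34% higher and 4.48% lower. In line 2 against line 1, 3 were higher and 1 was lower, against 6.54% of all genes, 2.33% higher and 4.21% lower. Groups that did not overlap in CPM were also counted. Over all edited cells 0 imprinted genes lay above and 2 below every parental library (6.08% and 6.93% of all genes). The counts were 2 above and 6 below in line 1 (15.2% and 16.3%), 2 above and 4 below in line 2 (18.5% and 20.9%), and 7 above and 4 below for line 2 against line 1 (25.2% and 26.4%). The median log2 fold change of the 17 genes was -0.14, -0.07, -0.06 and 0.09 in these 4 comparisons, beside -0.0018, -0.0085, -0.0098 and 0.0072 over all tested genes. Most imprinted genes thus lay near the middle of all genes, and 5 genes made up the calls: DLK1, PLAGL1, ASCL2, H19 and DIRAS3.

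**Figure D1:**
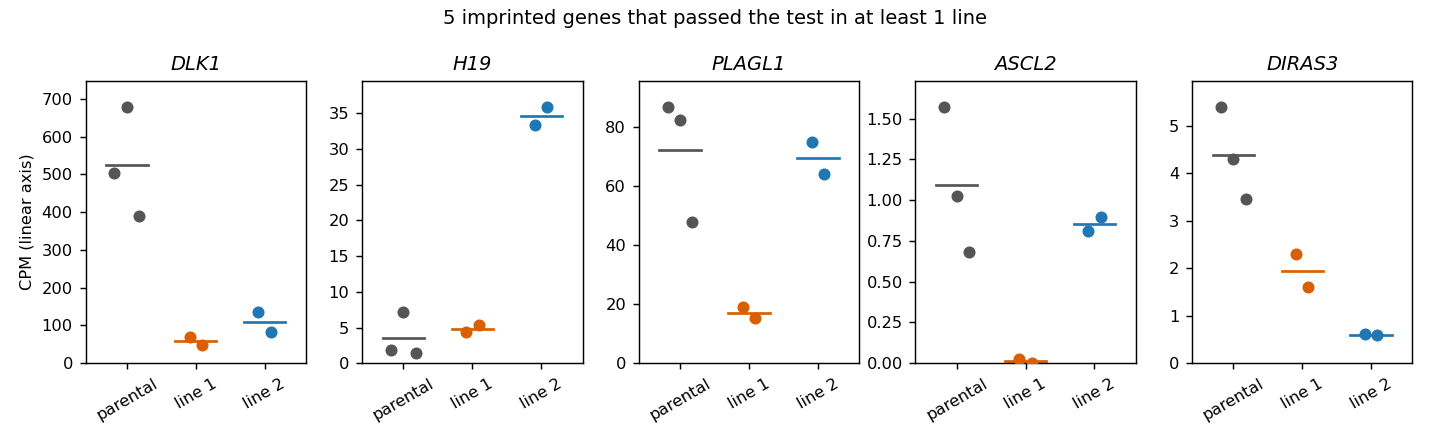
CPM of the 5 imprinted genes that passed in at least 1 line, with a panel for each gene, a linear axis from 0 and 1 point for each library. DLK1 is below every parental library in both lines, PLAGL1 and ASCL2 are low in line 1, H19 is high in line 2, and DIRAS3 is lowest in line 2.

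DLK1 (ENSG00000185559) encodes a transmembrane relative of the Notch ligands, is expressed from the paternal copy at 14q32, and is known as an inhibitor of adipocyte differentiation and a marker of immature cells. Its level was 502, 679 and 390.8 CPM in parental 1 to 3, 68.1 and 48.5 CPM in line 1, and 135 and 82.7 CPM in line 2. Every edited library lay below every parental library, and both libraries of line 2 lay above both of line 1. DLK1 was 8.99-fold lower in line 1 (log2 fold change -3.17, SE 0.32, edgeR adjusted p 0.00221) and 4.81-fold lower in line 2 (log2 fold change -2.27, SE 0.31, adjusted p 0.00379). Over all edited libraries the log2 fold change was -2.65 (SE 0.34, edgeR adjusted p 0.022).

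The lines' DLK1 levels differed by a log2 value of 0.90 (SE 0.31), which did not pass (edgeR adjusted p 0.144). In parental cells DLK1 had the highest level per length of the 35 genes, 124 ± 38.9 FPKM (SD, n = 3), and it fell to 14.3 ± 2.73 FPKM (SD, n = 2) in line 1 and 26.5 ± 7.62 FPKM (SD, n = 2) in line 2. It supplied 17 to 26.2% of all counts on the imprinted genes in parental libraries, 2.69 to 3.65% in line 1 and 4.2 to 6.77% in line 2. The call over all edited libraries was lost when parental 1 (edgeR adjusted p 0.0932) or parental 2 (0.122) was left out, and likewise for the first library of line 1 (0.0571) and the second of line 2 (0.0739). The calls in each line held whichever library was left out. In the authors' deposited table of edited against parental cells DLK1 had a log2 fold change of -2.64 and an adjusted p of 2.453e-11.

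MEG3 and MEG8, the maternally expressed long non-coding RNAs that share the 14q32 domain with DLK1, were barely detected. MEG3 had 0, 6 and 5 counts in parental 1 to 3, 0 in both libraries of line 1, and 0 and 1 in line 2. MEG8 had 5 counts in all libraries together. The deposited FPKM of MEG3 was 66.0 in parental 2, where 6 reads were counted, and at most 0.0654 in any other library, and this value put it among the 12 most abundant genes by mean FPKM although it had too few counts to be tested. Among the 20 nearest tested genes around DLK1, 10 on each side, the median log2 fold change was -0.06 in line 1 and -0.28 in line 2. No neighbour passed in line 1, and in line 2 the next tested genes in the order, RP11-1029J19.4 and RP11-1029J19.5, were lower, with log2 fold changes of -4.34 and -4.76. Untested genes of the domain, MEG3 and MEG8 among them, lie between these and DLK1. The RP11-1029J19.4 call was lost without replicate 1 of line 2 (edgeR adjusted p 0.0678) and that of RP11-1029J19.5 without replicate 2 (0.0904), while without replicate 1 the fitted value of RP11-1029J19.5 was -8.77, with 0 counts left in line 2.

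H19 (ENSG00000130600) is a maternally expressed long non-coding RNA of 11p15 that is abundant in fetal tissue, and its transcript hosts miR-675. Its level was 1.90, 7.21 and 1.41 CPM in parental 1 to 3, 4.31 and 5.29 CPM in line 1, and 33.3 and 35.9 CPM in line 2. Line 2 stood above all other libraries, while line 1 lay inside the parental range. H19 was 9.83-fold higher in line 2 than in parental cells (log2 fold change 3.30, SE 0.58, edgeR adjusted p 0.0123) and differed between the lines by 2.85 (SE 0.67, adjusted p 0.0389). In line 1 the log2 fold change was 0.45 (SE 0.58, edgeR adjusted p 0.807).

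The H19 call in line 2 was lost without replicate 1 of line 2 (edgeR adjusted p 0.0545) or replicate 2 (0.0851). The difference between the lines was lost when any library of either line was left out (edgeR adjusted p 0.123 to 0.235). Parental 2 held the highest parental value. Without it the log2 fold change in line 2 was 4.40 (edgeR adjusted p 0.000363), and line 1 also passed, at a log2 fold change of 1.55 (edgeR adjusted p 0.0489). IGF2, the paternally expressed growth factor gene next to H19, had no count in any library, which allows up to 0.00862 CPM over the 7 libraries. The mature forms of miR-675 are shown with the seed, bases 2 to 8, in capitals, as RefSeq gives them at chr11:1996800-1996822 and chr11:1996768-1996787 of GRCh38.p14, minus strand. Mature miRNAs were not measured by these libraries.
hsa-miR-675-5p: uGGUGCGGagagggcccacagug
hsa-miR-675-3p: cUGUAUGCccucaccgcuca

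PLAGL1 (ENSG00000118495) encodes a zinc finger transcription factor that restrains the cell cycle and is expressed from the paternal copy at 6q24. Its level was 86.9, 82.2 and 47.9 CPM in parental 1 to 3, 18.9 and 15.4 CPM in line 1, and 75.1 and 63.9 CPM in line 2. Both libraries of line 1 lay below all others, and line 2 lay inside the parental range. PLAGL1 was 4.22-fold lower in line 1 (log2 fold change -2.08, SE 0.27, edgeR adjusted p 0.00781). The log2 fold change in line 2 was -0.06 (SE 0.24, adjusted p 0.924), and the difference between the lines was 2.02 (SE 0.28, edgeR adjusted p 0.00409). The call in line 1 was lost without replicate 1 (edgeR adjusted p 0.0595) or replicate 2 (0.112) of that line.

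The nearest tested genes on either side of PLAGL1 did not pass in line 1: LTV1 had a log2 fold change of 0.04 and SF3B5 of 0.25. Of its 20 nearest tested neighbours, 2 were lower in line 1. AIG1 had a log2 fold change of -1.86 (edgeR adjusted p 0.00181) and STX11, a syntaxin of lymphocytes, of -3.49 (adjusted p 0.00855). The STX11 call was lost without replicate 1 (edgeR adjusted p 0.0987) or replicate 2 (0.123) of line 1, and that of AIG1 held whichever library was left out. The median over the 20 neighbours was -0.13.

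ASCL2 (ENSG00000183734) encodes a basic helix-loop-helix transcription factor needed for the placenta in mice, where it is maternally expressed, and it lies at 11p15. Parental 1 to 3 gave 58, 57 and 45 counts, line 1 gave 1 and 0, and line 2 gave 59 and 35. Line 1 was at or under the detection floor, and the other libraries stood between 0.682 and 1.57 CPM. The ratio of counts per library size, parental cells over line 1, was 78.3 (95% exact counting interval 13.9 to 3112), and line 2 over line 1 it was 65.2 (11.4 to 2601). Both differences passed, with edgeR adjusted p values of 0.0145 and 0.00886. The call in line 1 was lost without replicate 1 (edgeR adjusted p 0.0795) or replicate 2 (0.16) of line 1. The difference between the lines was lost without replicate 2 of line 1 (0.0648).

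The next tested genes on 1 side of ASCL2 were low in line 1 as well, and were named after their values were seen. C11orf21 stood at 4.29, 8.27 and 1.29 CPM in parental 1 to 3, at 7.6 and 4.265 CPM in line 2, and had no count in line 1. The detection floor of line 1 as a group, 3 counts summed, was 0.0387 CPM. Relative to it the parental mean, 4.615 CPM, was at least 119-fold higher, and the line 2 mean, 5.933 CPM, at least 153-fold. These bounds hold for the means and not for each library, and parental 3 lay well below the parental mean. TSPAN32, a tetraspanin gene of blood cells, stood at 13.7, 29.5 and 4.50 CPM in parental 1 to 3, at 0.108 and 0.124 CPM in line 1, and at 24.9 and 17.4 CPM in line 2. Its log2 fold change in line 1 was -7.07 (SE 0.96, edgeR adjusted p 0.0101). The TSPAN32 call was lost without replicate 1 (edgeR adjusted p 0.103) or replicate 2 (0.129) of line 1, and so was that of C11orf21 (0.118 and 0.156). Further out, CD81, TSSC4, MRPL23 and CTSD had log2 fold changes of -0.17, 0.01, 0.12 and 0.02 in line 1 and did not pass.

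DIRAS3 (ENSG00000162595) encodes a Ras-family GTPase that restrains growth and is expressed from the paternal copy at 1p31. Its level was 5.40, 4.29 and 3.46 CPM in parental 1 to 3, 2.29 and 1.61 CPM in line 1, and 0.605 and 0.587 CPM in line 2. The 3 groups did not overlap, and line 2 was lowest. DIRAS3 was 7.30-fold lower in line 2 (log2 fold change -2.87, SE 0.38, edgeR adjusted p 0.00342), and this call held whichever library was left out. In line 1 the log2 fold change was -1.17 (SE 0.34, edgeR adjusted p 0.162).

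The lines differed in DIRAS3 by a log2 value of -1.70 (SE 0.39, edgeR adjusted p 0.0343), and this call was lost without any 1 of 6 libraries, all but parental 3 (adjusted p 0.0579 to 0.223). Over all edited libraries the log2 fold change was -1.79 (edgeR adjusted p 0.259), and DESeq2 on the same counts gave an adjusted p of 0.0222. In the authors' deposited table the log2 fold change was -1.78 with an adjusted p of 0.0159. DIRAS3 and DLK1 were the 2 imprinted genes under 0.05 there, of 20 with an adjusted p.

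The nearest tested gene on 1 side of DIRAS3, GNG12, which encodes a G protein gamma subunit, was lower in both lines. Its level was 12.9, 9.33 and 8.42 CPM in parental 1 to 3, 2.07 and 1.36 CPM in line 1, and 0.22 and 0.204 CPM in line 2. The log2 fold changes were -2.57 (edgeR adjusted p 0.00854) and -5.56 (adjusted p 2.53e-04). The call in line 1 was lost without replicate 1 (edgeR adjusted p 0.0539) or replicate 2 (0.123) of that line. The groups did not overlap, and their order was that of DIRAS3. In line 2, PTGER3, a prostaglandin receptor gene further along, was also lower, with a log2 fold change of -7.10 (edgeR adjusted p 2.1e-05). None of the tested genes between DIRAS3 and PTGER3, from DEPDC1 to RP11-42O15.3, passed in line 2.

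**Figure D2:**
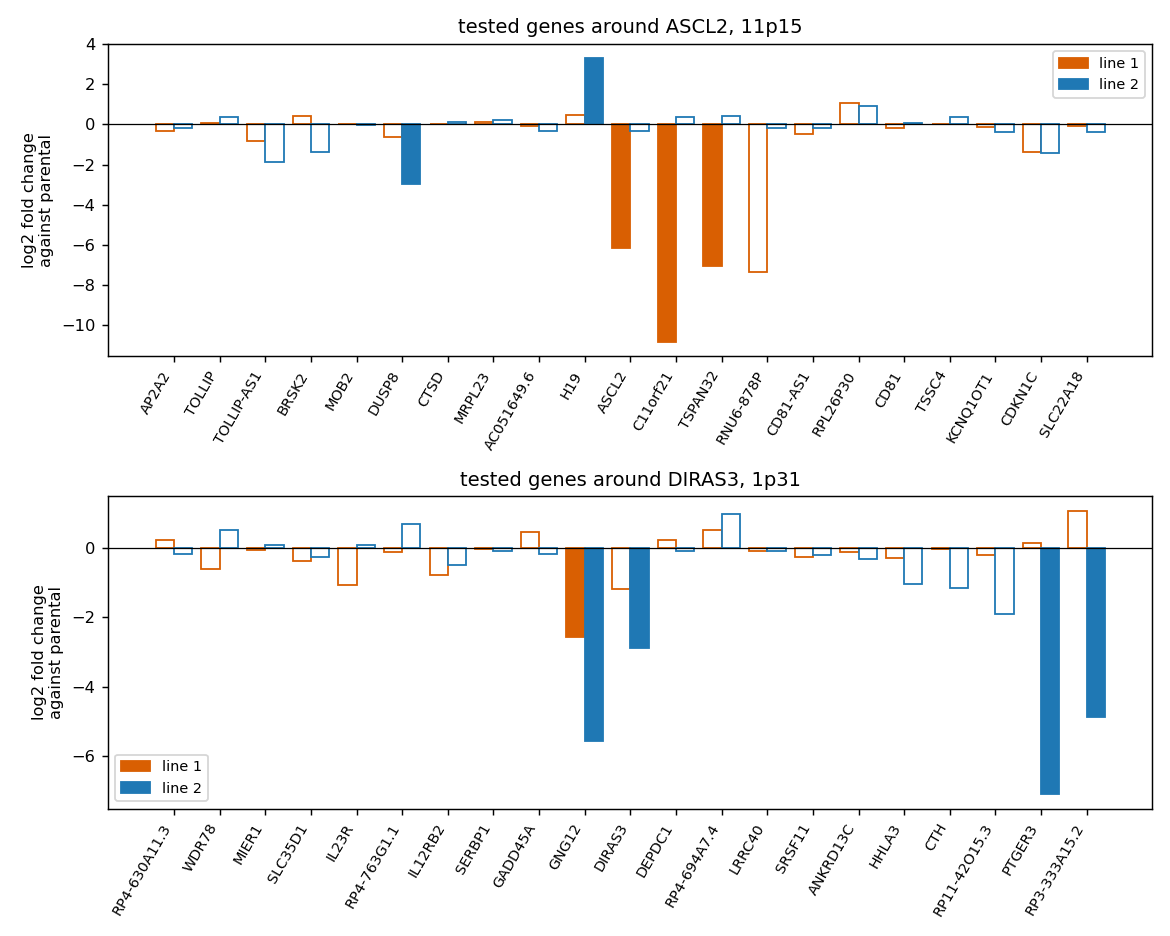
Log2 fold changes against parental cells of tested genes in chromosomal order around ASCL2 and DIRAS3, in line 1 and line 2, with filled bars for an adjusted p under 0.05. Around ASCL2 the filled bars of line 1 are ASCL2, C11orf21 and TSPAN32, and around DIRAS3 those of line 2 are GNG12, DIRAS3, PTGER3 and RP3-333A15.2. Bars of genes with 0 or 1 count in a group depend on the prior count and give no size.

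GNAS, GRB10 and UBE3A, which followed DLK1 by mean FPKM, did not pass in any comparison. GNAS, which encodes the stimulatory G protein alpha subunit and is imprinted by isoform and tissue, stood at 393, 388 and 519 CPM in parental 1 to 3, 397 and 379.8 CPM in line 1, and 419 and 409 CPM in line 2. GRB10, an adaptor that dampens insulin and growth factor signalling, stood at 261, 245 and 210.2 CPM in the parental libraries, 223 and 233 CPM in line 1, and 218 and 169 CPM in line 2. UBE3A, a ubiquitin ligase that is maternally expressed in neurons, stood at 159.9, 188 and 187 CPM in the parental libraries, 209.9 and 231 CPM in line 1, and 177 and 217 CPM in line 2. Edited and parental libraries overlapped in all 3 genes, although both UBE3A values of line 1 lay above the parental ones. Their log2 fold changes over all edited libraries were -0.11, -0.18 and 0.22 (SE 0.13, 0.14 and 0.13).

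IGF2R, the receptor that clears IGF2 and is maternally expressed in mice, stood at 330.0, 355 and 269.9 CPM in parental 1 to 3, 312 and 344 CPM in line 1, and 419.96 and 467 CPM in line 2. Line 2 lay above all other libraries. Its log2 fold change in line 2 was 0.48 (SE 0.16, edgeR adjusted p 0.114), and it did not pass. MKRN3, a paternally expressed RING finger gene of 15q11 that holds back puberty, stood at 28.5, 33.6 and 21.8 CPM in the parental libraries, 29.8 and 35.9 CPM in line 1, and 33.4 and 34.6 CPM in line 2, and the groups overlapped.

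PHLDA2, a maternally expressed restrainer of placental growth, stood at 10.1, 9.08 and 17.7 CPM in parental 1 to 3, 14.9 and 14.5 CPM in line 1, and 14.5 and 21.6 CPM in line 2, with overlap. L3MBTL1, a paternally expressed chromatin compactor, stood at 25.6, 22.9 and 21.4 CPM in the parental libraries, 19.5 and 15.4 CPM in line 1, and 27.5 and 22.2 CPM in line 2. Line 1 was lowest in L3MBTL1, and its log2 fold change was -0.42 (SE 0.19, edgeR adjusted p 0.383). BLCAP, an apoptosis-linked gene that surrounds NNAT, stood at 14.97, 15.4 and 17.8 CPM in the parental libraries, 18.8 and 16.9 CPM in line 1, and 18.7 and 15.8 CPM in line 2, with overlap.

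**Figure D3:**
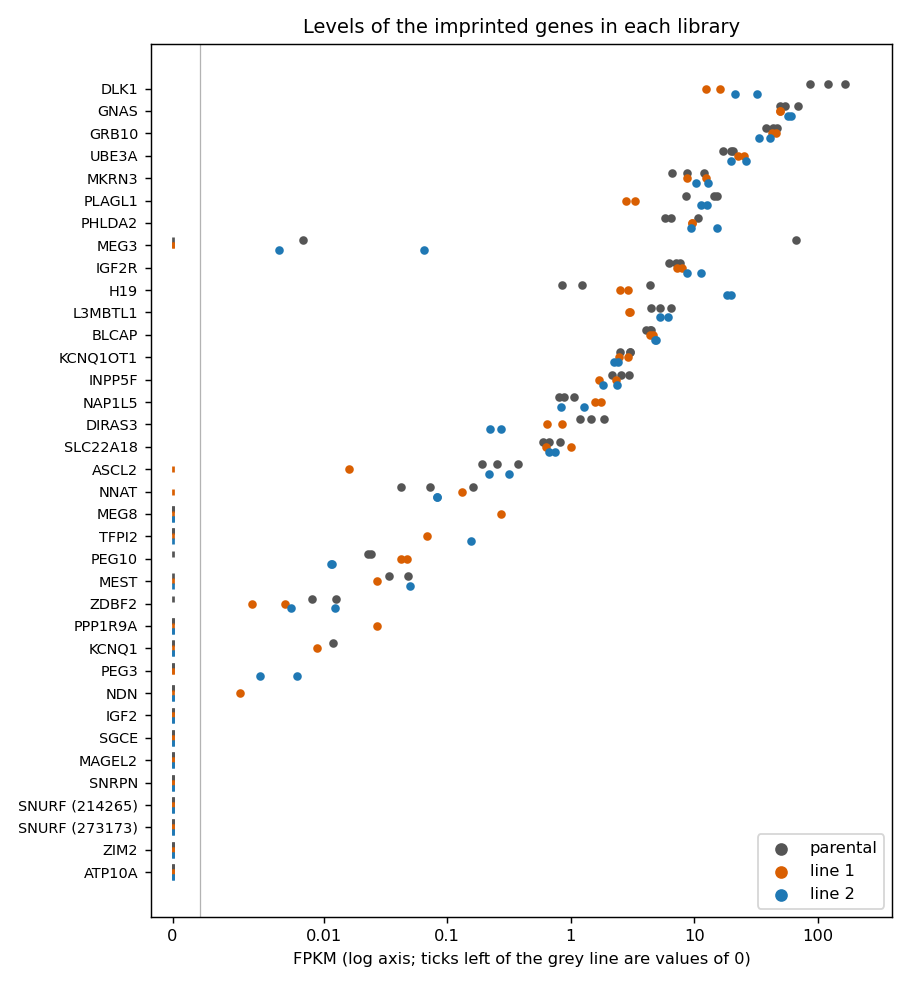
FPKM of the 36 rows of the imprinted genes in each library on a log axis, ordered by mean, with ticks left of the grey line for values of 0. DLK1, GNAS, GRB10 and UBE3A lie highest, and the single high point of MEG3 is parental 2, in which 6 reads were counted.

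Among the other tested genes, KCNQ1OT1, the paternally expressed antisense RNA that silences part of 11p15, ranged from 386 to 554 CPM. It had a log2 fold change of -0.38 in line 2 (SE 0.16, edgeR adjusted p 0.205), with both libraries below the parental ones. It runs antisense to KCNQ1, a potassium channel gene with 6 counts in all, and how the counting assigned reads of overlapping genes on opposite strands is not stated. NAP1L5, a paternally expressed relative of nucleosome assembly proteins, ranged from 3.27 to 6.87 CPM and was highest in line 1, with a log2 fold change of 0.84 (SE 0.27, edgeR adjusted p 0.206). INPP5F, a phosphoinositide phosphatase gene, ranged from 25.9 to 35.1 CPM, and SLC22A18, a maternally expressed transporter gene, from 2.605 to 4.82 CPM.

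**Figure D4:**
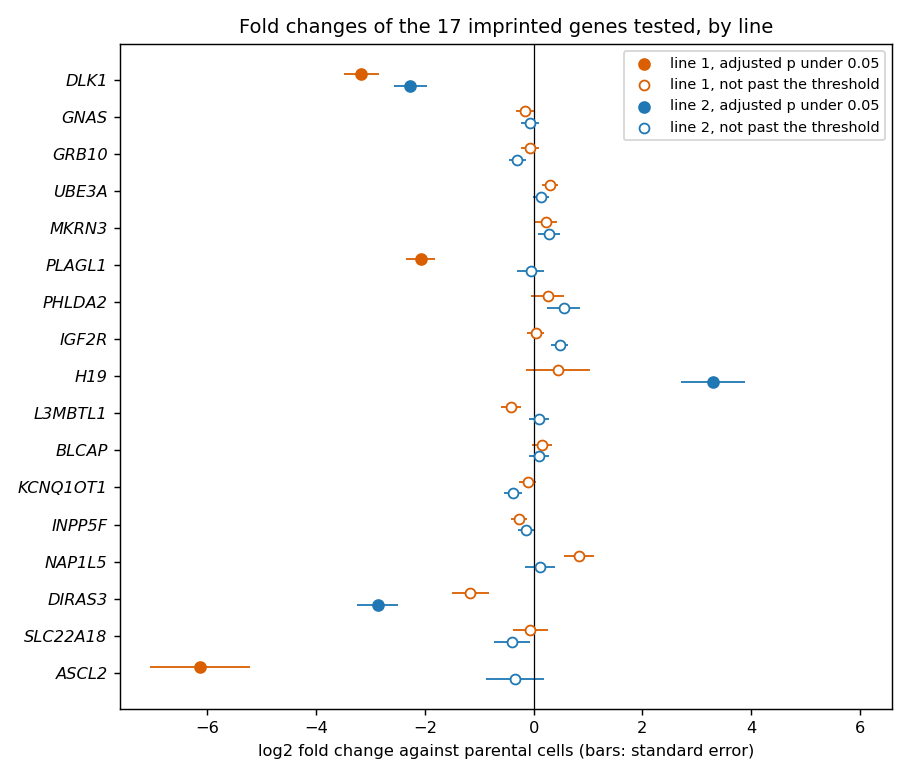
Log2 fold changes of the 17 tested imprinted genes in line 1 and line 2 against the same parental libraries, with bars for 1 standard error and filled points for an adjusted p under 0.05. DLK1 is filled in both lines, PLAGL1 and ASCL2 in line 1 alone, and H19 and DIRAS3 in line 2 alone. The fitted value of ASCL2 in line 1 rests on 1 count and depends on the prior count.

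The 7 names without a count were IGF2, NDN, MAGEL2, SNRPN, SNURF, ZIM2 and PPP1R9A. NDN, MAGEL2, SNRPN and SNURF belong to the 15q11 domain that is lost in Prader-Willi syndrome, where MKRN3 and UBE3A were detected. SNRPN shares its transcripts with SNURF, and ZIM2 shares exons with PEG3, and the sources used here do not say how reads common to both genes were counted, so these zeros are uncertain. The 11 genes with too few counts to test reached at most 0.353 CPM in any library. They were NNAT with 58 counts over all libraries, MEST with 37, ZDBF2 with 33, PEG10 with 23, MEG3 with 12, TFPI2 with 7, KCNQ1 with 6, MEG8 with 5, ATP10A with 4, and SGCE and PEG3 with 2 each.

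By parental origin as listed, 8 of 20 names expressed from the paternal copy were tested, and 6 of 12 from the maternal copy. As given above, the maternal origin of ASCL2 and IGF2R is that in mice, and that of UBE3A is that in neurons. Of the genes listed as paternal, DLK1 and PLAGL1 were lower in line 1 and DLK1 and DIRAS3 in line 2. None of them was higher in either line. Of those listed as maternal, ASCL2 was lower in line 1 and H19 higher in line 2. Among all tested genes, 1.33% were lower and 0.419% higher in line 1, and 4.48% and 1.34% in line 2. The median log2 fold changes of the paternal and maternal genes in line 2 were -0.10 and 0.31, beside -0.0098 over all tested genes. These counts are small, the alleles were not told apart, and no difference between the groups was tested.

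Of 66 other imprinted gene names, 30 were tested. In line 1, TSPAN32 was lower and none was higher, beside 1.33% and 0.419% of all tested genes. In line 2, NLRP2 and DGCR6L were higher and PON2 and COPG2 lower, beside 1.34% and 4.48% of all tested genes. The PON2 call held whichever library was left out. The NLRP2 and COPG2 calls were each lost in 6 of 7 leave-outs, all but that of parental 3 (highest edgeR adjusted p 0.352 and 0.303), and that of DGCR6L in 5, all but those of parental 2 and parental 3 (0.243). The median log2 fold change was -0.22 in line 1 and -0.16 in line 2. PON2, a paraoxonase gene, stood at 0.434, 0.431 and 0.667 CPM in parental 1 to 3, at 1.91 and 1.21 CPM in line 1, and at 0 in both libraries of line 2 (edgeR adjusted p 0.00598 in line 2). Parental and line 1 libraries all lay above those of line 2.

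Genes that set or keep imprints were mostly near the middle of all genes, with 26 of 32 tested and none passing in line 1. In line 2, EED, a Polycomb subunit, was higher and the DNA methyltransferase genes DNMT3A and DNMT1 were lower, beside 1.34% of all genes higher and 4.48% lower. DNMT3A, a de novo methyltransferase, stood at 33.1, 38.5 and 34.0 CPM in parental 1 to 3, 36.4 and 31.2 CPM in line 1, and 17.3 and 16.2 CPM in line 2. Line 2 lay below all other libraries (log2 fold change -1.07, SE 0.16, edgeR adjusted p 0.00566), and DNMT3A also differed between the lines (-1.01, SE 0.17, adjusted p 0.00998). DNMT1 had a log2 fold change of -0.63 in line 2 (SE 0.15, edgeR adjusted p 0.0462) and EED of 0.72 (SE 0.18, adjusted p 0.0475). Both calls were lost when any library but parental 3 was left out (edgeR adjusted p up to 0.192 for DNMT1 and 0.4215 for EED). The DNMT3A call in line 2 was lost without replicate 2 of line 2 (edgeR adjusted p 0.0758), and its difference between the lines without replicate 1 of line 1 (0.0967) or either library of line 2 (0.0604 and 0.0828). ZFP57 had no count in any library. TRIM28, CTCF and KDM1B did not pass, with log2 fold changes in line 2 of 0.51, 0.30 and 0.09.

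In the insulin-like growth factor pathway, on which several imprinted genes act, 11 of 18 genes were tested. In line 1, IRS1, the insulin receptor substrate, was higher, and no gene was lower. In line 2, IGF1R, IRS1 and INSR were lower, and no gene was higher. Of all tested genes 0.419% were higher in line 1 and 4.48% lower in line 2. INSR, the insulin receptor gene, stood at 4.48, 5.42 and 3.29 CPM in parental 1 to 3, 7.97 and 3.24 CPM in line 1, and 0.371 and 0.179 CPM in line 2. Its log2 fold change in line 2 was -3.93 (SE 0.55, edgeR adjusted p 0.00458), it was -4.60 without replicate 1 of line 2, and the call was lost without replicate 2 (adjusted p 0.0603). IRS1 had log2 fold changes of 1.93 in line 1 and -1.85 in line 2 (edgeR adjusted p 0.041 and 0.0408), and the lines differed by -3.78 (adjusted p 0.0024). Both IRS1 calls against parental cells were lost when any library but parental 3 was left out (edgeR adjusted p up to 0.274 and 0.183), and the difference between the lines held in every case. IGF1R had a log2 fold change of -1.23 in line 2 (SE 0.22, edgeR adjusted p 0.0124), and this call was lost without replicate 2 of line 2 (adjusted p 0.1198).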

How the data were processed

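Poly-A RNA of 7 K562 libraries was sequenced as paired reads from TruSeq Stranded mRNA libraries, per the labels' protocols. The submitters' processing notes name the builds GRCh37 and hg19, the aligners STAR 2.7.3a and Bowtie2 2.5.1, the counter HTSeq 0.11.2, Cufflinks 2.2.1 and DESeq2, beside cutadapt 2.5, FastQC 0.11.8 and MultiQC 1.7. The sources used here give neither their order nor their settings, strand option included. The deposited values were the authors' raw counts per gene, normalized counts (a signal scaled per library), FPKM values, and a comparison table of log2 fold changes and adjusted p-values, per the file headers. The FPKM of 108 repeated identifiers were summed, and 20 identifiers had counts but no FPKM.

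The test was that of edgeR 4.0.16 (R 4.3.3) on the deposited counts. Filtering by filterByExpr (minimum count 10) kept 18160 of 57773 genes, TMM set the library scaling, and p-values of glmQLFTest after glmQLFit were adjusted by Benjamini-Hochberg over all tested genes at 0.05. The comparison of all edited with parental cells used 2 groups, and the others shared 1 fit of 3 groups. The standard error is the log2 fold change divided by the square root of F. CPM uses TMM-scaled library sizes and serves within a gene, and FPKM serves between genes.

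The imprinted genes, the other lists and the naming rule were chosen with earlier results of these data known. The rule gave values in every library for imprinted genes that passed in any comparison or were among the 12 most abundant by mean FPKM, and for each other list named at most 4 genes, those with the smallest adjusted p. CDKN1C, the neighbouring genes, and list genes beyond the rule were named after their values were seen, and so was the choice to leave out each library for them. Neighbours were ordered with GENCODE release 29, on a later build and used for order only, which placed 17394 tested genes. Promoters and miRNAs came from RefSeq.

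Alternatives were DESeq2 1.42.0 size factors and its Wald test, no filter, upper quartile scaling, limma-voom (limma 3.58.1), a minimum mean of 2 CPM, a 3-group fit, a block for the replicate number, each library left out, and limma on log2(FPKM + 1) and log2(FPKM + 0.1). The steps were tested on simulated counts. With 17718 genes for line 1 against parental cells, recovery was 35.4% at 2-fold, 74.6% at 4-fold and 87.7% at 8-fold, and 7.8% of the calls were unchanged genes. With 17664 genes for line 2 it was 28.1%, 70.1% and 86.4%, with 9.63% of the calls unchanged genes. Both shares lie above the false discovery rate of 0.05 that was set. For all edited against parental cells 4.83% of the calls were unchanged genes, and for line 2 against line 1 4.27%, both under that rate. Each share comes from a single simulated draw.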

Additional observations from a re-analysis of the deposited data

Results flagged for a closer look

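The 2 edited lines, which share 1 genotype label, differed from each other in 4 imprinted genes, by the test of line 2 against line 1 in edgeR's quasi-likelihood fit with Benjamini-Hochberg adjustment. PLAGL1 was higher in line 2 by a log2 value of 2.02 and H19 by 2.85. ASCL2 was higher in line 2 with a fitted log2 value of 5.79, which rests on 1 count in line 1 and gives no size. DIRAS3 was lower in line 2, at -1.70. PHLDA2 stood at 21.6 CPM in replicate 2 of line 2, far above the other 3 edited libraries, which were within 14.5 to 14.9 CPM. The gap took up 0.94 of the range of the 4 libraries, which pool both lines. Chance flags about 1 in 20 such groups if their libraries are replicates of each other, and more than 1 gene was looked at. The parental libraries ranged from 9.08 to 17.7 CPM.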

How the results depend on the processing

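The counts of imprinted genes that passed, 1 over all edited cells, 3 in line 1, 3 in line 2 and 4 between the lines, moved by 1.5 times or less with DESeq2 size factors, limma-voom, upper quartile scaling, a minimum mean of 2 CPM and no filter. DESeq2's Wald test gave 2 over all edited cells and the 3-group fit gave 4. Limma on log2(FPKM + 1) or log2(FPKM + 0.1) gave 0, 0, 1 and 0 in the 4 comparisons, and without a filter 0 in each. Leaving out 1 library gave 0 to 1, 1 to 4, 2 to 4 and 1 to 4 imprinted genes. Counts over the other lists, 0, 2, 10 and 8, became 2, 6, 16 and 13 with no filter and 4 and 5 in the first 2 comparisons with DESeq2's Wald test. They became 3 over all edited cells in the 3-group fit, 1 in line 1 with a mean of at least 2 CPM, and 1 in line 1 and 6 in line 2 with limma-voom. On FPKM they were 0 throughout, except 1 between the lines with log2(FPKM + 0.1). Leaving out 1 library gave 0 throughout, 0 to 4, 1 to 13 and 4 to 12. The cause of these changes was not tested. Over all genes, 33, 318, 1057 and 1188 passed, against 464, 899, 2032 and 1900 with DESeq2's Wald test, 234, 1167, 2477 and 2158 with no filter, 8, 23, 196 and 209 on log2(FPKM + 1), and 619 over all edited cells in the 3-group fit. With the replicate number as a block, 0, 7, 6 and 7 imprinted genes and 0, 9, 30 and 21 genes of the other lists passed. Over all genes 7, 2272, 3887 and 3568 passed with this block. Deviations of same-numbered libraries from their group means correlated at -0.0971 to 0.302. With 2 libraries in a line these deviations mirror each other, so the correlations cannot tell whether the numbers pair the samples. Among values of single imprinted genes under the alternatives, none changed sign where it was called. At these depths a gene under about 0.0412 to 0.0814 CPM per library could not be told from 0. Recovery of 4-fold changes was 56.9 to 79.7% of simulated cases depending on the comparison. The highest value, 79.7%, was for all edited against parental cells. There both simulated lines were given the same level and the spread of the 3-group fit, so it does not hold for genes that differ between the lines.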

Other observations

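CDKN1C, a maternally expressed inhibitor of the cell cycle at 11p15, stood at 8.38, 13.6 and 28.0 CPM in parental 1 to 3, at 7.38 and 5.37 CPM in line 1, and at 6.07 and 6.54 CPM in line 2. Every edited library lay below every parental library. Its log2 fold change over all edited libraries was -1.40 (SE 0.37), and it did not pass (edgeR adjusted p 0.234 with Benjamini-Hochberg adjustment). DUSP8, a phosphatase gene of the same region, stood at 3.36, 2.94 and 9.46 CPM in the parental libraries, 4.63 and 2.30 CPM in line 1, and 0.6185 and 0.741 CPM in line 2. Line 2 was lowest, and its log2 fold change was -2.96 (edgeR adjusted p 0.0255), or -2.21 without parental 3. The call was lost without replicate 1 (edgeR adjusted p 0.127) or replicate 2 (0.185) of line 2.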
